A study of Mus musculus with 20 samples.

Results

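The genes described here are 10 genes of the intestinal crypt base and of Wnt signalling: Lgr5, Olfm4, Ascl2, Smoc2, Axin2, Slc12a2, Sox9, Rnf43, Znrf3 and Cd44. They were listed by name and not by a rule on their values, although earlier results of these data were known. All 10 were found among the 35204 genes of the deposited table of estimated counts. All 10 were also among the 16306 genes with at least 0.5 CPM (counts scaled to the size of the library) in at least 1 mouse, over which every test was run. RNA came from a short piece of terminal ileum of 20 female C57Bl6 mice, 5 in each of 4 groups, that were 7 weeks old at the start of 3 weeks of feeding. CD mice received an amino acid control diet and TDD mice the same diet without tryptophan (Trp), and both kept the microbiota of specific pathogen-free (SPF) housing. CD+ABX and TDD+ABX mice were fed in the same way but drank neomycin, metronidazole, gentamycin, vancomycin and ampicillin (ABX) from before the change of diet, which depletes bacteria without making the mice germ-free. Sucrose was also added to the antibiotic water, and the study does not state whether SPF mice received it in theirs. The 4 comparisons were TDD with CD in SPF mice, TDD with CD in ABX-treated mice, and ABX with no ABX on each diet. Since comparisons share groups (the CD mice, for example, are the reference for both TDD and CD+ABX), their values are given side by side and were not used to support one another.

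Columnar stem cells at the base of each crypt renew the ileal epithelium, and Wnt ligands from neighbouring Paneth cells and from the mesenchyme keep them dividing. Wnt binds Frizzled and LRP receptors and stabilises β-catenin, which acts with TCF factors at target genes, and R-spondins that bind LGR receptors strengthen the signal. Several targets, among them Axin2, Rnf43 and Znrf3, feed back on the pathway and weaken it, so that their mRNA is a common readout of Wnt activity. The tissue was a full piece of gut, and in such bulk RNA fewer crypt cells and less RNA per cell cannot be told apart.

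Total estimated counts per mouse ranged from 36676963 to 58662617. The 10 epithelial markers together held 9574 to 16100 CPM per mouse and were detected in all 20 mice. Paneth cell markers, which the crypts of the small intestine should hold, summed to 6913 CPM or more in every mouse. Fabp6, the ileal bile acid binding protein, was at 0.238 to 3.91 CPM in the 10 SPF mice and at 2.65 to 144 CPM in ABX-treated mice. Fabp6 is 1 of the 11 enterocyte markers, which together summed to 20680 CPM or more in every mouse, so that it gave little of that sum. Fabp6 passed as higher with ABX on both diets, and any part of the position of the piece in this was not tested. Smooth muscle markers ranged from 471.6 to 2508 CPM and B cell and follicle markers from 4.21 to 182 CPM, so that the pieces differed in how much muscle and follicle RNA they gave. CD+ABX mouse 5 and TDD mouse 1 stood apart in the crypt genes themselves, as set out below. Without CD+ABX mouse 5, the log2 fold change of TDD in ABX-treated mice moved from 0.26 to 0.10 for Olfm4 and from 0.15 to 0.047 for Znrf3. Without TDD mouse 1, that of TDD in SPF mice moved from -0.24 to -0.12 for Olfm4 and from -0.16 to -0.047 for Axin2, and none of these values passed with or without the mouse.

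Levels of different genes were compared per length, in TPM (a transcript abundance corrected for length and library size) summed over each gene's transcripts. Olfm4, which encodes a secreted glycoprotein of crypt base cells, was the most abundant of the 10 genes at a mean of 240 TPM over 20 mice (101.5 to 344.5). Slc12a2, the basolateral sodium, potassium and chloride cotransporter of crypt cells, followed at 30.2 TPM, Axin2 at 29.1 TPM, Smoc2 at 25.1 TPM and Rnf43 at 19.3 TPM. Cd44, Ascl2, Lgr5 and Sox9 lay close together at 6.14, 4.95, 4.88 and 4.74 TPM. Znrf3 was lowest at 2.33 TPM. Olfm4 exceeded Slc12a2, Rnf43 exceeded Cd44 and Sox9 exceeded Znrf3 in all 20 mice, without overlap of their ranges. Other neighbours in this order overlapped, and Ascl2 was above Lgr5 in 8 of 20 mice only. The order is one of sums over all transcripts, coding or not. For Rnf43 the leading transcript, Rnf43-201, held 23.3% of the sum on average (9.76% to 36.2%). Its sum includes transcripts not annotated as protein coding, such as Rnf43-207 of 364 bases, at a mean of 4.64 TPM in CD mice. Within a gene, the highest mouse was 1.43 times the lowest for Rnf43 and 3.25 times the lowest for Olfm4, in CPM, with the other 8 genes between.

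Promoters are shown because the genes varied together between mice, as described further on. RefSeq promoter windows on GRCm38.p6, from 250 bases before to 50 bases after a start, were matched for 5 of the 10 genes (Olfm4, Axin2, Cd44, Ascl2 and 2 starts of Rnf43, 6 windows in all). The gene bounds given further on come from another annotation, GENCODE M21. The windows of Olfm4 and of both Rnf43 starts lie within those bounds and not before them. The TCF core motif was searched as CTTTGA and CTTTGT on both strands, and neither was found in the 6 windows, while 16.0% and 18.7% of all 32851 windows of the same length held them. The shorter CTTTG, which both longer motifs contain, was present in 53.9% of all windows and in 1 of the 6, that of Cd44. TATAA, searched on the gene's strand only, was present in 17.5% of all windows and in that of Olfm4. The 250 bases before the start follow for Olfm4 (chr14:80000052-80000301, plus strand), Axin2 (chr11:108920099-108920348, plus strand) and Cd44 (chr2:102901666-102901915, minus strand), 5′ to 3′ on the gene's strand, with the matched TATAA or CAAAG (the reverse of CTTTG) in capitals. The TATAA of Olfm4 begins at position -32 and the CAAAG of Cd44 at position -163, counted from the start.
Olfm4: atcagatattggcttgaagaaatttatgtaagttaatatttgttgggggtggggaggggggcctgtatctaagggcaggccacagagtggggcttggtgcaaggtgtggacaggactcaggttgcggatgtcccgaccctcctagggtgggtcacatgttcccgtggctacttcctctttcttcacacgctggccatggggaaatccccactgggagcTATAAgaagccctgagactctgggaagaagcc
Axin2: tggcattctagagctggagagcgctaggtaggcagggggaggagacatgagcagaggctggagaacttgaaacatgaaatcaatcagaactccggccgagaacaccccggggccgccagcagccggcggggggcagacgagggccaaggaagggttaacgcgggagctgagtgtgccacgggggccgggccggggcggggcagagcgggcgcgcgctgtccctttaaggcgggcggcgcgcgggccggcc
Cd44: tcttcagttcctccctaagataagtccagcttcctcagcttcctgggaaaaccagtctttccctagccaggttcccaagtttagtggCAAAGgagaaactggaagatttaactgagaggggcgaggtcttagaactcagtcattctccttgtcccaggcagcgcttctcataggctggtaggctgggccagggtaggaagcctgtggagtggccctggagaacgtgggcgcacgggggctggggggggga
The absence of these letters from a short window says nothing of TCF binding elsewhere at these genes.

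**Figure D1:**
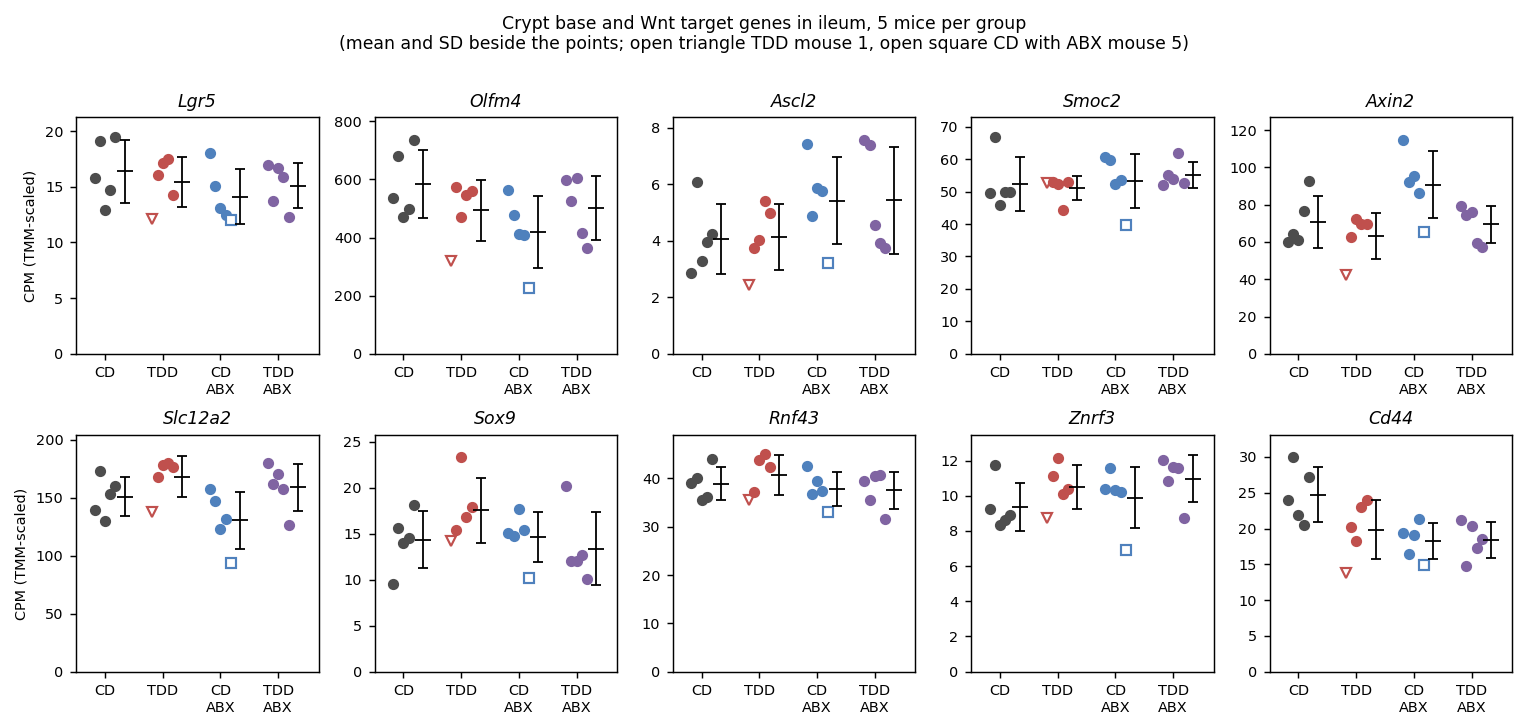
Level of each of the 10 genes in CPM (vertical axis, from 0) in each of 20 mice by group, with the group mean and SD beside the points. The groups overlap for every gene, and CD+ABX mouse 5 (open square) is the lowest of its group in all 10 panels.

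Lgr5 encodes the R-spondin receptor that marks crypt base stem cells (ENSMUSG00000020140.15, GRCm38 chromosome 10, 115450311 to 115587780, minus strand). CD mice 1 to 5 had 15.8, 19.1, 12.9, 14.8 and 19.5 CPM, and TDD mice 12.1, 16.1, 17.2, 17.5 and 14.2 CPM. With ABX the values were 18.0, 15.1, 13.1, 12.4 and 12.0 CPM on CD and 16.9, 13.7, 16.7, 15.9 and 12.3 CPM on TDD. Each group spread over a similar range, the lowest mouse being CD+ABX mouse 5 and the highest CD mouse 5, and all groups overlapped. TDD differed from CD by a log2 fold change of -0.09 in SPF mice (standard error 0.14, q = 0.714) and of 0.10 in ABX-treated mice (q = 0.793; quasi-likelihood F-test of edgeR, with q adjusted by Benjamini-Hochberg over all genes tested, used throughout). The 95% interval of the fold change was 0.77 to 1.146 in SPF mice and 0.878 to 1.31 in ABX-treated mice. With ABX, Lgr5 differed by -0.22 on CD (0.706-fold to 1.05-fold, q = 0.344) and by -0.03 on TDD (0.805-fold to 1.197-fold, q = 0.917). The transcript Lgr5-201 made up 76.6% of the gene's TPM on average. An annotated gene on the opposite strand, A930009A15Rik, overlaps Lgr5, and since the strand of the libraries is not given in the sources used here, reads from the shared part cannot be told apart.

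Olfm4 (ENSMUSG00000022026.7, chromosome 14, 79984081 to 80023139, plus strand) had the widest ratio of highest to lowest mouse. It was at 535, 681, 472, 499.8 and 735 CPM in CD mice 1 to 5 and at 318, 574, 469, 546 and 559.9 CPM in TDD mice. In CD+ABX mice it was at 565, 479, 414, 409.5 and 226 CPM, and in TDD+ABX mice at 597, 526, 607, 415 and 363 CPM. The lowest mice, CD+ABX mouse 5 and TDD mouse 1, lay well below the rest of their groups, and the ranges of all 4 groups overlapped. Olfm4 was 585 ± 116 CPM in CD and 419 ± 125 CPM in CD+ABX mice (SD, n = 5). On the log2 scale this was -0.48 with a standard error of 0.21 and did not pass (unadjusted p = 0.036, q = 0.152, edgeR; 0.525-fold to 0.976-fold). Without CD+ABX mouse 5 this value was -0.32. TDD gave -0.24 in SPF mice (q = 0.493) and 0.26 in ABX-treated mice (q = 0.611), and the difference between these effects did not pass either (0.50 on the log2 scale, standard error 0.30, q = 0.678). On TDD, ABX-treated and SPF mice differed by 0.02 (0.746-fold to 1.38-fold, q = 0.955). A long non-coding RNA, Gm6999, overlaps the gene on the same strand.

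Ascl2, a Wnt-induced transcription factor of crypt base stem cells (ENSMUSG00000009248.6, chromosome 7, 142966829 to 142969264, minus strand), rested on the fewest reads, 97 to 369 counts per mouse, and had the widest intervals. It was at 2.87, 6.07, 3.27, 3.95 and 4.23 CPM in CD mice and at 2.43, 3.76, 4.04, 5.42 and 4.98 CPM in TDD mice. With ABX it was at 7.41, 4.87, 5.88, 5.76 and 3.21 CPM on CD and at 7.56, 7.39, 4.57, 3.92 and 3.73 CPM on TDD. The highest values were in ABX-treated mice, but each ABX group also held mice below the mean of its SPF group. ABX gave log2 fold changes of 0.41 on CD (0.904-fold to 1.95-fold, q = 0.356) and 0.40 on TDD (0.896-fold to 1.93-fold, q = 0.325). TDD gave 0.02 in SPF mice (0.688-fold to 1.49-fold, q = 0.977) and 0.00 in ABX-treated mice (0.684-fold to 1.47-fold, q = 0.998).

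Smoc2, a matricellular protein that marks Lgr5 cells and is also made by stromal cells (ENSMUSG00000023886.10, chromosome 17, 14279506 to 14404790, plus strand), had similar means in all groups. They were 52.4 ± 8.22 CPM in CD, 51.1 ± 3.703 in TDD, 53.2 ± 8.34 in CD+ABX and 55.2 ± 3.96 CPM in TDD+ABX mice (SD, n = 5). Log2 fold changes ran from -0.04 to 0.11 over the 4 comparisons, with q from 0.501 to 0.932. The interval was 0.836-fold to 1.14-fold for TDD in SPF mice and 0.927-fold to 1.26-fold for ABX on TDD, with the other 2 between these bounds. CD mouse 2 had the highest level of all 20 mice, at 66.7 CPM, and also the highest smooth muscle sum, at 2508 CPM. An antisense gene, 4930474M22Rik, overlaps Smoc2.

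Axin2, a scaffold of the β-catenin destruction complex and a direct Wnt target (ENSMUSG00000000142.15, chromosome 11, 108920349 to 108950783, plus strand), was highest in CD+ABX mice. It was at 59.9, 64.2, 60.9, 76.6 and 92.5 CPM in CD mice and at 114.8, 91.9, 95.4, 86.1 and 65.2 CPM in CD+ABX mice. TDD mice had 42.3, 62.6, 72.4, 69.4 and 69.7 CPM, and TDD+ABX mice 79.3, 74.6, 76.0, 59.6 and 57.3 CPM. All CD+ABX mice except mouse 5 were above 4 of the 5 CD mice, and CD mouse 5 reached into their range. Axin2 averaged 70.8 ± 13.8 CPM in CD and 90.7 ± 17.9 CPM in CD+ABX mice (SD, n = 5), and the difference of 0.36 on the log2 scale (standard error 0.16, 1.01-fold to 1.62-fold) did not pass after adjustment (unadjusted p = 0.0389, q = 0.16, edgeR). With CD+ABX mouse 5 and TDD mouse 1 both left out, a choice made after seeing the data, it was 0.46 and passed (q = 0.0298, edgeR). In ABX-treated mice TDD gave -0.39 (0.606-fold to 0.966-fold, unadjusted p = 0.0265, q = 0.257), and in SPF mice -0.16 (0.708-fold to 1.13-fold, q = 0.556). The antisense gene Gm11670 overlaps Axin2, with the same limit on strand as above.

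Rnf43 and Znrf3 are membrane ubiquitin ligases that remove Frizzled receptors and are themselves Wnt targets. Rnf43 (ENSMUSG00000034177.15, chromosome 11, 87662722 to 87735539, plus strand) was the steadiest of the 10 genes between mice, with group means of 38.9 ± 3.42 CPM in CD, 40.7 ± 4.19 in TDD, 37.9 ± 3.50 in CD+ABX and 37.5 ± 3.897 CPM in TDD+ABX mice (SD, n = 5). Its log2 fold changes ran from -0.12 for ABX on TDD to 0.07 for TDD in SPF mice (standard error 0.09 in each comparison, q of 0.367 and 0.667). The first of these had an interval of 0.812-fold to 1.04-fold and the second of 0.923-fold to 1.19-fold. Znrf3 (ENSMUSG00000041961.14, chromosome 11, 5276324 to 5444847, minus strand) was at 9.37 ± 1.37 CPM in CD, 10.5 ± 1.26 in TDD, 9.89 ± 1.73 in CD+ABX and 10.97 ± 1.32 CPM in TDD+ABX mice (SD, n = 5). TDD gave 0.16 in SPF mice (0.927-fold to 1.35-fold, q = 0.445) and 0.15 in ABX-treated mice (0.921-fold to 1.34-fold, q = 0.629). For both genes the values of all groups overlapped. A small nuclear RNA gene on the opposite strand (Gm25968) and a sense intronic transcript (1110028F11Rik) lie within Rnf43.

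Slc12a2 (ENSMUSG00000024597.11, chromosome 18, 57878678 to 57946821, plus strand) had a higher mean on TDD in both settings, by amounts that did not pass. In CD mice it was at 139.6, 173, 129.6, 153 and 160.3 CPM and in TDD mice at 137, 168, 178, 180.3 and 177 CPM. In CD+ABX mice it was at 157, 148, 123, 132 and 93.6 CPM and in TDD+ABX mice at 179.8, 162, 171, 157 and 127 CPM. TDD mouse 1 and TDD+ABX mouse 5 were the lowest of their groups, the other 8 TDD-fed mice were at 157 CPM or above, and TDD-fed and CD-fed mice overlapped in both settings. TDD gave log2 fold changes of 0.15 in SPF mice (0.931-fold to 1.33-fold, q = 0.445) and 0.29 in ABX-treated mice (1.02-fold to 1.46-fold, unadjusted p = 0.0312, q = 0.274, edgeR). Without CD+ABX mouse 5 the value in ABX-treated mice was 0.19. ABX gave -0.21 on CD (0.723-fold to 1.03-fold, q = 0.297) and -0.08 on TDD (0.792-fold to 1.13-fold, q = 0.699). Averaged over both settings, a contrast added after seeing the data, TDD gave 0.22 for Slc12a2 (q = 0.088) and -0.27 for Axin2 (q = 0.104, edgeR), and neither passed, while 17.8% of all genes tested did.

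Sox9, a transcription factor of crypt base and Paneth cells (ENSMUSG00000000567.5, chromosome 11, 112782224 to 112787760, plus strand), was at 9.56, 15.6, 14.025, 14.499 and 18.2 CPM in CD and at 14.3, 15.4, 23.3, 16.8 and 17.9 CPM in TDD mice. It was at 15.1, 14.7, 17.6, 15.5 and 10.2 CPM in CD+ABX mice and at 20.2, 12.0, 12.0, 12.6 and 10.03 CPM in TDD+ABX mice. TDD+ABX mouse 1 stood above the other 4 mice of its group, which were all below the lowest TDD mouse. ABX on TDD gave -0.39 (standard error 0.19, 0.578-fold to 1.01-fold, q = 0.176, edgeR), and without TDD+ABX mouse 1 the same comparison gave -0.58 and passed (q = 0.0467, edgeR). TDD gave 0.29 in SPF mice (0.923-fold to 1.61-fold, q = 0.352) and -0.13 in ABX-treated mice (0.693-fold to 1.21-fold, q = 0.81).

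Cd44, a hyaluronan receptor and Wnt target of the crypt that T cells, fibroblasts and other cells also carry (ENSMUSG00000005087.17, chromosome 2, 102811141 to 102901665, minus strand), was the only one of the 10 genes to pass a test. CD mice 1 to 5 had 24.0, 30.1, 21.9, 20.5 and 27.2 CPM and CD+ABX mice 19.4, 16.5, 19.0, 21.4 and 15.0 CPM. The groups overlapped by CD+ABX mouse 4 and CD mouse 4, and the other 4 CD+ABX mice were below every CD mouse. Cd44 averaged 24.7 ± 3.897 CPM in CD and 18.2 ± 2.53 CPM in CD+ABX mice (SD, n = 5). It was thus lower with ABX by -0.44 on the log2 scale (standard error 0.14, 0.600-fold to 0.907-fold, q = 0.0491, edgeR). This call lay at the threshold. With 1 mouse left out at a time it held in 5 of 20 fits, those without CD mouse 4, TDD mouse 1, TDD mouse 5, CD+ABX mouse 4 or TDD+ABX mouse 2 (q from 0.0223 to 0.0452), and was lost in the other 15 (q from 0.0507 to 0.119, edgeR), with log2 fold changes of -0.50 to -0.36 throughout. TDD mice had 13.8, 20.2, 18.2, 23.0 and 24.1 CPM and TDD+ABX mice 21.2, 14.8, 20.3, 17.3 and 18.6 CPM. TDD in SPF mice gave -0.32 (0.653-fold to 0.987-fold, unadjusted p = 0.0387, q = 0.149) and ABX on TDD -0.11 (0.754-fold to 1.14-fold, q = 0.641). In ABX-treated mice TDD gave 0.01 (0.821-fold to 1.24-fold, unadjusted p = 0.92, edgeR). Averaged over both diets, a contrast added after seeing the data that contains these CD and CD+ABX mice and was not run with mice left out, ABX gave -0.27 for Cd44 (q = 0.0488, edgeR), beside 28.5% of all genes tested that passed this contrast. Of 7 T cell markers, 5 passed as lower with ABX on CD, beside 7.43% of all genes tested. The 7 together summed to 33.8 to 89.2 CPM in CD and 18.0 to 23.1 CPM in CD+ABX mice, with none at 0. On TDD, 4 of the 7 also passed as lower with ABX, beside 15.5% of all genes in either direction. These 4 calls were all lost without TDD+ABX mouse 1. Cd44 was at -0.11 in this comparison and did not pass. The part of T cells in the change of Cd44 was not tested.

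Of 9 annotated Cd44 transcripts, Cd44-207, with 14 exons, led with 56.0% of the gene's TPM on average and between 39.3% and 78.3% in single mice. It was at 3.82, 5.68, 3.897, 3.96 and 4.83 TPM in CD mice and at 2.79, 3.28, 2.75, 3.07 and 3.01 TPM in TDD mice, without overlap. In CD+ABX mice it was at 2.90, 2.52, 3.66, 4.09 and 2.96 TPM and in TDD+ABX mice at 2.91, 2.50, 2.82, 2.65 and 3.57 TPM, and both overlapped the groups they were compared with. It was the only one of 21 transcripts of the 10 genes, at a mean of at least 1 TPM, whose groups did not overlap in any comparison, beside 7.49% of all such transcripts for TDD against CD in SPF mice. In the other 3 comparisons none of the 21 stood clear, beside 3.75% for TDD in ABX-treated mice, 5.4% for ABX on CD and 9.79% for ABX on TDD. Transcripts of one gene share most of their sequence, so that kallisto's split of reads between them is an estimate.

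**Figure D2:**
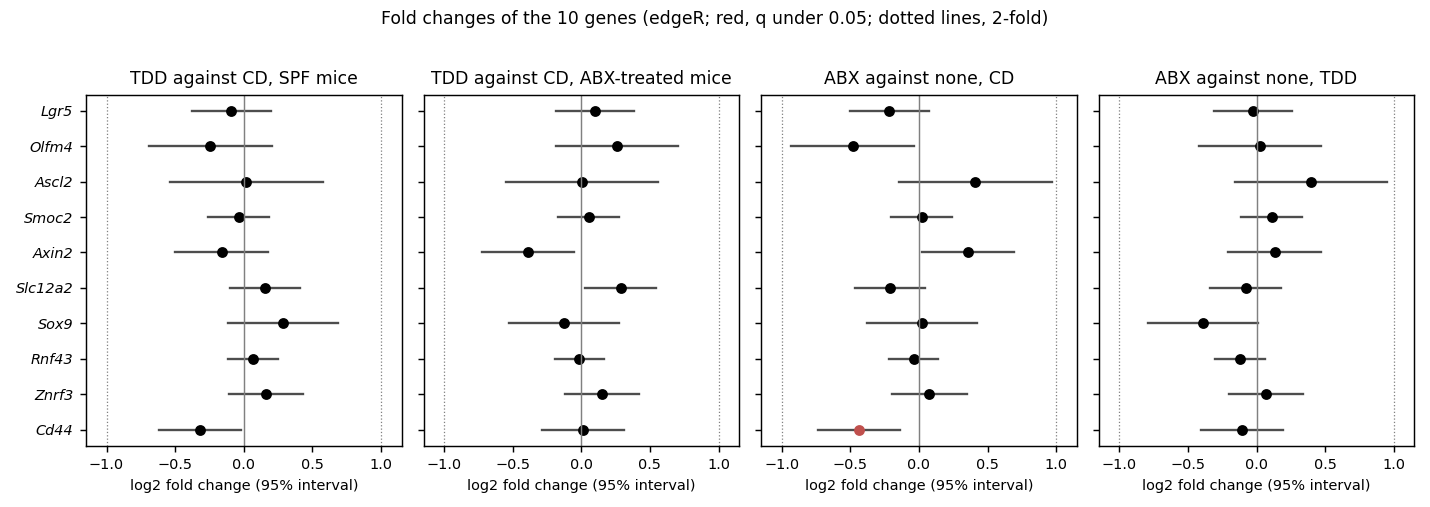
Log2 fold change (points) with its 95% interval (lines) for each of the 10 genes in each of the 4 comparisons. Every interval lies between the dotted lines of a 2-fold change, and Cd44 with ABX on CD is the only value past q of 0.05.

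Over the 10 genes, TDD passed for none in SPF mice, where 14.4% of all genes tested passed, and for none in ABX-treated mice, where 1.77% passed. At an unadjusted p under 0.05 there were 1 and 2 of the 10 genes, beside 28.5% and 14.8% of all genes, and DESeq2 also called none in either. ABX passed for 1 of 10 on CD (Cd44, lower), where 7.43% of all genes passed as lower and 12.8% in either direction, and 3 of the 10 had an unadjusted p under 0.05, beside 26.7% of all genes. On TDD it passed for none, where 15.5% of all genes passed, and none of the 10 had an unadjusted p under 0.05 there, beside 30.6% of all genes. The interaction of diet and ABX passed for none of the 10 (q from 0.678 to 0.997, none at an unadjusted p under 0.05, and none with DESeq2), beside 0.0368% of all genes, and 8.9% at an unadjusted p under 0.05. None of the 10 passed with a change of at least 2-fold, beside 1.84%, 0.331%, 2.3% and 1.67% of all genes in the 4 comparisons and 0.0245% for the interaction. In none of the 4 comparisons were the 5 values of a group clear of those of the other for any of the 10 genes, while 9.58%, 4.78%, 9.74% and 11% of all genes were. The median log2 fold change of the 10 genes was -0.01, 0.03, -0.01 and 0.00 in the 4 comparisons, beside 0.01, 0.00, 0.00 and -0.03 over all genes. All 10 intervals excluded a 2-fold change in either direction in each comparison. Intervals that also excluded a 1.5-fold change numbered 7 for TDD in SPF mice, 8 for TDD in ABX-treated mice, 6 for ABX on CD and 8 for ABX on TDD.

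Expressed against the summed epithelial markers in place of TMM, the log2 fold changes of ABX were lower than with TMM, since those markers were themselves higher with ABX (3 of 10 passed as higher on each diet). Ascl2 on CD (0.23) and on TDD (0.16) and Axin2 on CD (0.21) stayed above 0, and the other values were negative. That scaling moved the median of all genes by -0.20 for ABX on CD and by -0.24 for ABX on TDD. Under it Cd44 was at -0.64 on CD (q = 0.0259), and on TDD Sox9 was at -0.64 (q = 0.0334) and Rnf43 at -0.37 (q = 0.0401, edgeR), values that include these shifts.

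Within the groups, the 10 genes varied together from mouse to mouse. CD+ABX mouse 5 had the lowest level of its group in 10 of 10 genes, TDD mouse 1 in 9 and TDD+ABX mouse 5 in 8. CD+ABX mouse 1 and TDD+ABX mouse 1 had the highest in 7 genes each, and CD mice 2 and 5 in 5 each. The median deviation of the 10 genes from the group mean was -0.45 on the log2 scale in CD+ABX mouse 5 and -0.31 in TDD mouse 1. Marker sums of other cells moved in these mice as well. The 14 proliferation genes summed to 560 CPM in CD+ABX mouse 5 and 466 CPM in TDD mouse 1, the lowest of their groups, where the other mice had 771 to 896 and 630 to 717 CPM. Enterocyte markers were highest of the group in both, at 48090 and 45560 CPM, and smooth muscle markers were lowest in CD+ABX mouse 5 (978.5 CPM) but highest in TDD mouse 1 (1993 CPM). The part of these cells in the levels of the 10 genes was not tested.

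**Figure D3:**
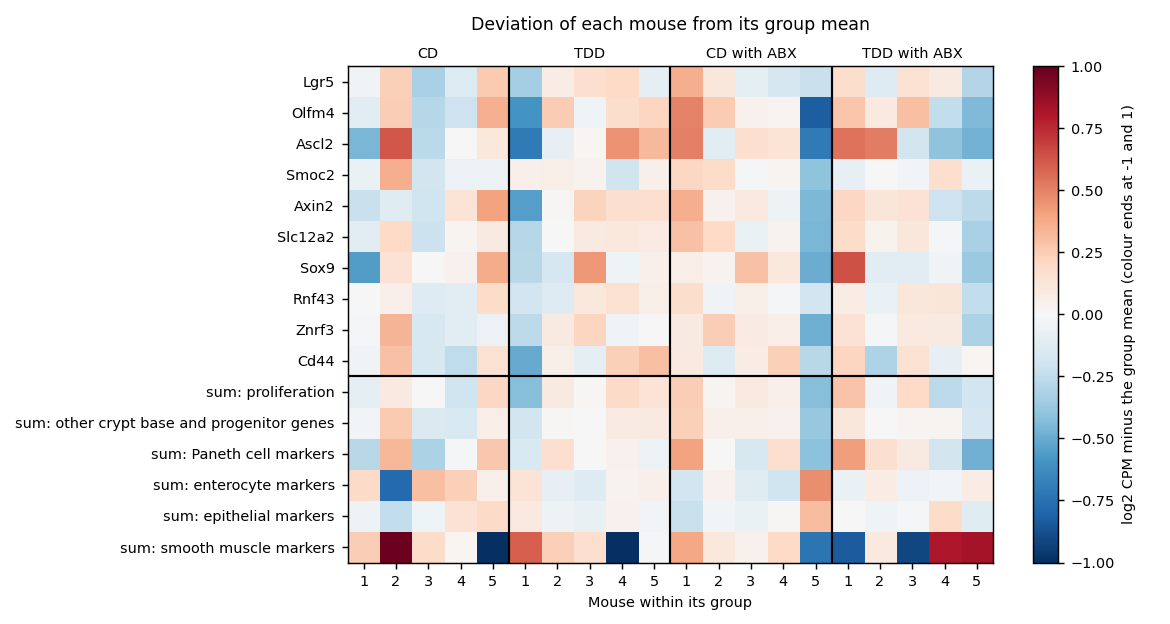
Deviation of each mouse from its group mean on the log2 CPM scale (colour) for the 10 genes and, below the line, for 6 sums of marker genes. The columns of CD+ABX mouse 5 and TDD mouse 1 are blue for nearly all of the 10 genes and for proliferation, and red for enterocyte markers.

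With group means removed, all 45 pairs of the 10 genes had a positive Pearson correlation of log2 CPM over the 20 mice, with a median of 0.622 (range 0.199 to 0.919). Of these pairs, 37 passed by Pearson's r and 30 by both r and Spearman's rho (permutation test with 100000 permutations of the mice within groups, two-sided, Benjamini-Hochberg over 45 pairs). Olfm4 and Slc12a2 were closest (r = 0.919, permutation p = 1e-05, the smallest these permutations can give; rho = 0.863, p = 6e-05), and r was 0.848 without the 2 mice farthest from the median of Olfm4. Lgr5 and Rnf43 had r = 0.828 (permutation p = 0.0001; rho = 0.847, p = 4e-05), and 0.777 without 2 such mice. Axin2 went with Olfm4 at r = 0.842 (permutation p = 0.00024; rho = 0.756, p = 0.0004) and 0.723 without 2 mice. Smoc2 stood apart, with 2 of its 9 pairs past q of 0.05 and a median r of 0.377, and its pair with Axin2 was the weakest of all (r = 0.199, permutation p = 0.454; rho = 0.0857, p = 0.728). Without the 2 mice farthest from the median of the first gene of each pair, the median r was 0.5 and 44 of 45 pairs stayed positive, and with CD+ABX mouse 5 and TDD mouse 1 left out they were 0.478 and 44. Over all 98666128 pairs of the 14048 genes with a mean of at least 1 CPM, 49.4% had a positive r and 4.62% an r of 0.622 or more, in the same 20 libraries. The values of a mouse share its library and its mix of cells, so that these correlations describe the mice and not a regulation of one gene by another.

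**Figure D4:**
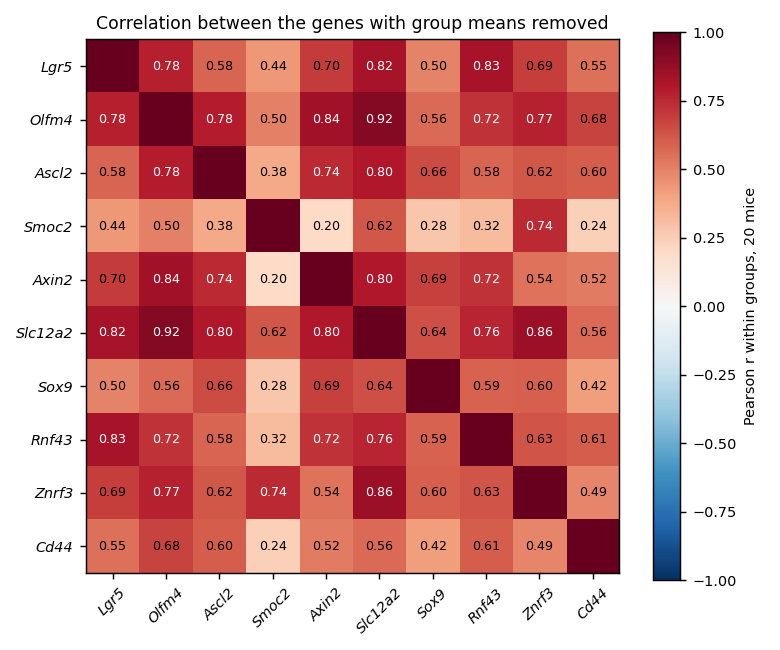
Pearson r of log2 CPM between each pair of the 10 genes over 20 mice after the group means were removed (colour and printed value). All 45 pairs are above 0, from 0.199 for Smoc2 with Axin2 to 0.919 for Olfm4 with Slc12a2, and the row of Smoc2 is the palest.

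For each gene, the most similar other genes were those with the highest Pearson r of log2 CPM over the 20 mice, among 14038 genes, given as a description. Olfm4 was closest to Prps2 (r = 0.918), Clca3b and Lama2 (0.911 each), and Slc12a2 to Slc39a8 (0.901), Hmga1 (0.895) and Qsox2 (0.894). Ascl2 was closest to Syce2 (0.895), Cdc7 (0.887) and Ddx11 (0.862), and Axin2 to Depdc1a (0.872), Ss18 (0.853) and Cstf3 (0.841). Znrf3 was closest to Tarbp1 (0.894), Cep68 (0.884) and Ephb4 (0.854), and Cd44 to Itga2 (0.861), Atxn7l1 (0.856) and Kif2c (0.842). Lgr5 and Rnf43 had 2 of their 3 in common, D630039A03Rik (0.864 and 0.82) and Pabpc1 (0.804 and 0.832), with Paip2b (0.802) and Card10 (0.821) beside them. Smoc2 was closest to Prelp (0.871), Actn1 (0.87) and Lrig1 (0.867), and Sox9, with the lowest values, to Eef1akmt3 (0.767), Wnt3 (0.729) and Zfp36l2 (0.719). With group means removed the same 30 values ran from 0.73 to 0.946.

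Other genes of the crypt base and of progenitors were tested in the same way. Of 16 such genes, TDD in SPF mice passed for Bmi1 (higher, 0.19 on the log2 scale, q = 0.00713) and Tert (lower, -0.49, q = 0.0299), and ABX on TDD for Soat1 (lower, -0.34, q = 0.0284, edgeR). Among all genes tested, 14.4% passed for TDD in SPF mice and 15.5% for ABX on TDD. Without CD mouse 3 Tert did not pass, and without TDD mouse 3 Soat1 did not. With epithelial-marker scaling the 16 genes gave 0 calls for TDD in SPF mice and 2 as lower with ABX on each diet. In edgeR none of the 16 passed for TDD in ABX-treated mice, for ABX on CD or for the interaction, where 1, 3 and 1 had an unadjusted p under 0.05. Of the 10 other Wnt target and feedback genes, TDD in SPF mice passed for 1 in each direction. Tcf7, a TCF factor that T cells also express, was higher (0.65, q = 0.045), a call that held in 4 of 20 fits with 1 mouse left out, and Ccnd1, which encodes cyclin D1, was lower (-0.45, q = 0.046, 12 of 20 fits). ABX on TDD also passed for 1 in each direction: Ccnd1 was higher (0.54, q = 0.0183) and Sp5, a Wnt target transcription factor, was lower (-0.58, q = 0.0105, edgeR). With epithelial-marker scaling none of these 10 genes passed for TDD in SPF mice, and ABX on TDD gave 0 as higher and 3 as lower. Sp5 was at 5.95, 4.93, 5.57, 5.67 and 6.73 CPM in TDD mice and at 4.44, 3.74, 4.13, 3.48 and 3.52 CPM in TDD+ABX mice, which did not overlap. These 2 groups did not overlap for 11% of all genes tested.

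In ABX-treated mice TDD passed for none of the ligand, receptor and antagonist genes tested (2, 1 and 0 at an unadjusted p under 0.05, edgeR). ABX on CD passed for none of the receptors and antagonists (1 and 0 at an unadjusted p under 0.05, edgeR). Among all genes tested, 1.77% passed for TDD in ABX-treated mice and 14.4% for TDD in SPF mice. With ABX, 12.8% passed on CD and 15.5% on TDD, and the counts that follow are near or under these shares. Of 11 Wnt ligand, R-spondin and secretion genes tested (of 14 listed), TDD in SPF mice passed for Wnt3, the Paneth cell ligand (higher, 0.58, q = 0.0363), and for Wnt5a, a mesenchymal ligand (lower, -0.38, q = 0.0296). Wnt4 passed as lower with ABX on both diets (-0.81, q = 0.0013, and -0.46, q = 0.0324, edgeR), from 7.92 ± 1.37 to 4.53 ± 0.856 CPM on CD and from 6.23 ± 0.746 to 4.52 ± 0.544 CPM on TDD (SD, n = 5). Single mice decided some of these calls: without TDD mouse 3 the q of Wnt3 was 0.112, without TDD mouse 4 that of Wnt5a was 0.0761, and without TDD+ABX mouse 1 that of Wnt4 on TDD was 0.0924. With epithelial-marker scaling neither Wnt3 nor Wnt5a passed. Of 15 receptor genes, Fzd4 passed as higher on TDD in SPF mice (0.44, q = 0.00398) and as lower with ABX on TDD (-0.55, q = 0.00137), and Lrp5 as higher with ABX on TDD (0.25, q = 0.018, edgeR). With epithelial-marker scaling no receptor passed for TDD in SPF mice, and ABX on TDD gave 0 as higher and 3 as lower. Fzd4, a Frizzled receptor that endothelial cells also express, was at 21.7 to 26.4 CPM in TDD mice and the highest of the other mice, CD mouse 1, was just under the lowest of these. Groups did not overlap for 9.58% of all genes tested for TDD in SPF mice and for 11% for ABX on TDD.

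Sfrp5, a secreted Wnt antagonist, showed the largest change among the 6 antagonist genes tested (of 7 listed). It was at 3.72, 5.49, 3.39, 2.48 and 4.19 CPM in CD mice and at 0.904, 1.10, 1.33, 1.18 and 1.58 CPM in TDD mice. CD+ABX mice had 6.84, 5.28, 5.49, 3.45 and 2.64 CPM and TDD+ABX mice 4.34, 5.42, 4.82, 1.99 and 3.83 CPM. All 5 TDD mice were below every mouse of the other 3 groups. Among all genes tested, groups did not overlap for 9.58% for TDD in SPF mice and 11% for ABX on TDD. Shares past q of 0.05 were 14.4% and 15.5% in these comparisons. Sfrp5 was lower on TDD in SPF mice by -1.65 on the log2 scale (0.211-fold to 0.481-fold, q = 0.000834) and higher with ABX on TDD by 1.73 (2.20-fold to 5.03-fold, q = 0.00114), and both calls held in 20 of 20 fits with 1 mouse left out (edgeR). In ABX-treated mice TDD did not pass for any of the 6 genes (none at an unadjusted p under 0.05). The interaction passed for none of them either (lowest q 0.185), so that a different effect of TDD on Sfrp5 in SPF and ABX-treated mice was not established.

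Within the cell, 16 genes of the destruction complex, Dishevelled family and TCF complex were tested. Among all genes tested, 14.4% passed for TDD in SPF mice, 1.77% for TDD in ABX-treated mice and 15.5% for ABX on TDD. Dvl2, a Dishevelled protein that relays the signal from Frizzled, passed as higher on TDD in SPF mice (0.55, q = 0.00133, 20 of 20 fits) and in ABX-treated mice (0.44, q = 0.033, 14 of 20 fits; edgeR), the latter not with epithelial-marker scaling. It was at 7.20 to 9.03 CPM in CD, 10.9 to 14.7 in TDD, 8.06 to 8.98 in CD+ABX and 9.70 to 14.1 CPM in TDD+ABX mice, so that TDD-fed and CD-fed mice did not overlap in either setting. The same held for 9.58% of all genes tested in SPF mice and for 4.78% in ABX-treated mice. Bcl9l, a β-catenin cofactor, also passed in SPF mice (0.24, q = 0.0385). ABX on TDD passed for Dvl1 (higher, 0.18, q = 0.0207), Gsk3b (lower, -0.29, q = 0.0344) and Bcl9 (lower, -0.33, q = 0.0381, edgeR), and ABX on CD for none of the 16, where 5 had an unadjusted p under 0.05. With epithelial-marker scaling ABX on TDD gave 0 of the 16 as higher and 5 as lower.

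**Figure D5:**
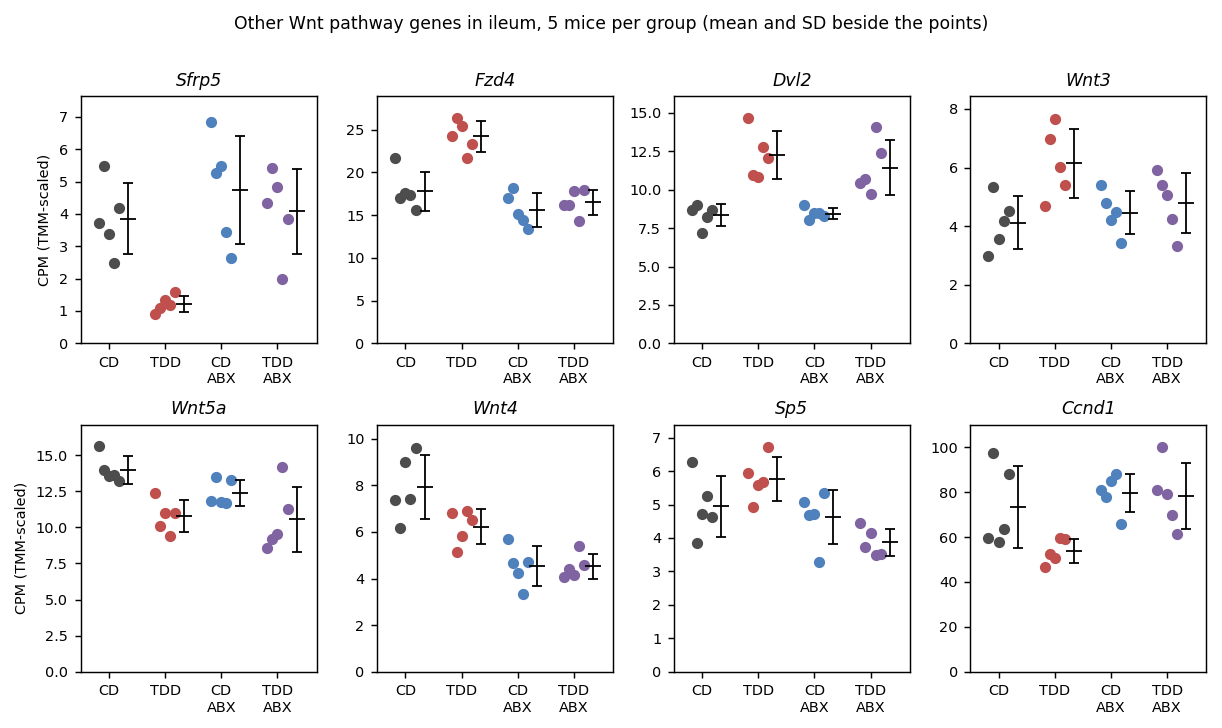
Level of 8 other Wnt pathway genes in CPM (vertical axis, from 0) in each of 20 mice by group, with the group mean and SD beside the points. The 5 TDD mice are the lowest for Sfrp5, and TDD-fed mice lie above CD-fed mice for Dvl2 with and without ABX. TDD-fed and CD-fed mice did not overlap for 9.58% of all genes tested without ABX and for 4.78% with ABX.

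The 14 proliferation genes were compared in the same way, since crypt cells divide. TDD in SPF mice gave a negative log2 fold change for all 14, of which Mcm2, a helicase subunit of DNA replication, passed (-0.40, q = 0.0337), and their median was -0.26. ABX on TDD gave a positive value for all 14 (median 0.37), and 7 passed, among them Mcm3 (0.48, q = 0.0298), Mcm6 (0.44, q = 0.026), Tyms (0.43, q = 0.0142) and Rrm2 (0.38, q = 0.0403, edgeR). Among all genes tested, 14.4% passed for TDD in SPF mice and 15.5% for ABX on TDD, and both comparisons contain the same TDD mice. The count of 7 was 2 without TDD+ABX mouse 1, 7 without TDD mouse 1 and CD+ABX mouse 5, and 0 with epithelial-marker scaling, under which Mcm2 did not pass either. None of the 14 passed for TDD in ABX-treated mice, for ABX on CD or for the interaction, where 1, none and 6 had an unadjusted p under 0.05.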

How the data were processed

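Poly-A RNA of terminal ileum from 20 mice was sequenced on an Illumina NovaSeq, and reads were pseudoaligned by the authors on mouse build GRCm38 with kallisto (version 0.44.0, per the submitters' processing notes), which shares reads between similar transcripts. For each mouse the authors deposited unnormalized estimated counts summed to genes. They also deposited, by transcript, estimated counts and TPM, which are scaled to transcript length and depth. Gene counts of the 10 genes equalled the sum of their transcripts' counts within 1 count in every mouse. Counts were rounded to whole numbers, scaled by TMM and fitted with edgeR 4.0.16 (R 4.3.3) in 1 quasi-likelihood model of 4 groups, with genes at 0.5 CPM or more in at least 1 mouse and Benjamini-Hochberg adjusted p (q) under 0.05. The study's added limit of 2-fold was counted as an alternative. Intervals are 95% intervals of the fitted fold change. The test was checked on simulated data.

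TPM was summed per gene by matching transcripts to GENCODE M21 on GRCm38 (98.4% of 113193 matched). Correlations used log2(CPM + 0.25). Alternatives were DESeq2 1.42.0, limma 3.58.1 (voom, and log2(TPM + 1)), RLE and epithelial-marker scaling, other filters, groups fitted alone, a replicate block and leaving out mice. Replicates were separately labelled samples, taken here as separate mice, and the labels give no batch. Mice with the same number did not deviate together (r of -0.406 to 0.282, best match in 1 of 20 mice), so numbers were not taken as pairs. Depth was 36676963 to 58662617 counts, and the lowest value of the 10 genes was 97 counts.

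The genes and the other gene lists were chosen with earlier results of these data known. All 10 genes are named, as are up to 4 genes per other list and comparison with q under 0.05, by size of log2 fold change, and the 3 genes most similar to each of the 10.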

Additional observations from a re-analysis of the deposited data

Results flagged for a closer look

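In 40 combinations of the 10 genes and 4 groups, the highest or lowest mouse was set against the nearest other mouse of its group, and 5 gaps exceeded 0.71 of the group's range (Dixon's critical value for 5 samples), where chance gives about 2. Smoc2 was at 66.7 CPM in CD mouse 2, with the next mouse at 49.9 CPM, and at 44.5 CPM in TDD mouse 4, with the next at 52.3 CPM. Slc12a2 was at 137 CPM in TDD mouse 1, below the next mouse at 168 CPM. Sox9 was at 20.2 CPM in TDD+ABX mouse 1, above the next at 12.6 CPM. Znrf3 was at 11.7 CPM in CD mouse 2, above the next at 9.23 CPM. CD mouse 2 also had the highest smooth muscle sum (2508 CPM) and the lowest enterocyte sum (20680 CPM) of all mice, and the part of these in its values was not tested.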

How the results depend on the processing

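Counts of the 10 genes past q of 0.05 were 0 under all settings for TDD in SPF mice, for TDD in ABX-treated mice and for the interaction. For ABX on CD the count of 1 became 0 with the 2-fold limit, without a filter, with limma-voom, with limma on log2(TPM + 1) and with the replicate block, and ran from 0 to 1 with 1 mouse left out. Cd44 was then at -0.43 (q = 0.0653), -0.44 (q = 0.0537), -0.34 (q = 0.195) and -0.44 (q = 0.0944, replicate block) and, without TDD mouse 1 and CD+ABX mouse 5, at -0.37 (q = 0.0601, edgeR or limma). In that fit Axin2 passed in its place (0.46, q = 0.0298, edgeR). With DESeq2, RLE scaling, the stricter filter, groups fitted alone and epithelial-marker scaling Cd44 still passed. For ABX on TDD the count of 0 became 2 with epithelial-marker scaling (Sox9 and Rnf43; median of the 10 genes -0.25) and ran from 0 to 1 with 1 mouse left out (Sox9, without TDD+ABX mouse 1). The replicate block changed no other call of the 10 genes.

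Over all genes, counts past q of 0.05 that moved by over 1.5 times were 1068 with epithelial-marker scaling and 1407 with groups fitted alone (2354 for TDD in SPF mice), 80 with epithelial-marker scaling, 187 without a filter, 119 with the block and 613 with DESeq2 (288 for TDD in ABX-treated mice), 4775 with epithelial-marker scaling (2525 for ABX on TDD), and 0 to 134 over all settings (6 for the interaction). With 1 mouse left out they ran from 105 (without CD+ABX mouse 4) to 505 (without CD mouse 2) for TDD in ABX-treated mice and from 1402 (without TDD+ABX mouse 1) to 3198 for ABX on TDD.

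Signs changed for values within 0.132 of 0, none of them called, and the cause was not tested. With limma on log2(TPM + 1), Ascl2 was at -0.12 and Rnf43 at -0.014 for TDD in SPF mice, Rnf43 at 0.065 for ABX on CD, Lgr5 at 0.037, Slc12a2 at 0.024 and Rnf43 at 0.043 for ABX on TDD, and Ascl2 at 0.15 and Znrf3 at 0.083 for the interaction. With epithelial-marker scaling, Ascl2 was at -0.027 for TDD in ABX-treated mice, Smoc2 at -0.17, Sox9 at -0.14 and Znrf3 at -0.12 for ABX on CD, and Olfm4 at -0.22, Smoc2 at -0.13, Axin2 at -0.11 and Znrf3 at -0.19 for ABX on TDD. With the block, Ascl2 was at -0.015 for TDD in ABX-treated mice. Without TDD mouse 1 and CD+ABX mouse 5, Ascl2 was at -0.14, Smoc2 at -0.036 and Cd44 at -0.051 for TDD in ABX-treated mice, Rnf43 at 0.013 for ABX on CD, Olfm4 at -0.084 for ABX on TDD and Slc12a2 at -0.024 for the interaction. For the interaction, Ascl2 and Znrf3 were at 0.0056 and 0.0038 with the stricter filter and at 0.0033 and 0.0017 without a filter, and Znrf3 at 0.0044 with limma-voom. With 1 mouse left out, Ascl2 ran from -0.097 to 0.19 and Smoc2 from -0.082 to 0.058 for TDD in SPF mice. For TDD in ABX-treated mice, Ascl2 ran from -0.14 to 0.14, Smoc2 from -0.034 to 0.103, Rnf43 from -0.059 to 0.041 and Cd44 from -0.0495 to 0.084. For ABX on CD, Smoc2 ran from -0.025 to 0.13, Sox9 from -0.090 to 0.13 and Rnf43 from -0.080 to 0.012. For ABX on TDD, Lgr5 ran from -0.10 to 0.054, Olfm4 from -0.0998 to 0.14 and Slc12a2 from -0.14 to 0.0088, and for the interaction Ascl2 from -0.17 to 0.14 and Znrf3 from -0.12 to 0.072.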

Other observations

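Niche signals beside Wnt were read in 18 genes of the Notch, EGF and BMP pathways. Among all genes tested, 14.4% passed for TDD in SPF mice, 12.8% for ABX on CD and 15.5% for ABX on TDD. Ereg, which encodes the EGF family ligand epiregulin, was higher with ABX on both diets (log2 fold change 1.17, q = 0.006, on CD and 1.14, q = 0.00719, on TDD, edgeR), from 11.3 ± 2.01 to 25.4 ± 7.78 CPM and from 9.26 ± 3.33 to 20.5 ± 6.85 CPM (SD, n = 5), and both calls held in 20 of 20 fits with 1 mouse left out. Dll4, a Notch ligand, was higher on TDD in SPF mice (0.76, q = 0.000193) and lower with ABX on TDD (-0.50, q = 0.00653, edgeR), and every TDD mouse (20.2 to 29.3 CPM) was above every mouse of the other groups (11.3 to 18.3 CPM). Groups did not overlap for 9.58% of all genes tested in the first of these comparisons and for 11% in the second. Bmp4, a BMP ligand of the mesenchyme, and Egfr were lower on TDD in SPF mice (-0.32, q = 0.0135, and -0.33, q = 0.0422, edgeR), but neither passed with epithelial-marker scaling.

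Among markers of other cells, the collagen genes Col1a1, Col1a2 and Col3a1 were lower on TDD with and without ABX (log2 fold changes of -1.09, -0.74 and -1.147 in SPF mice and -0.73, -0.51 and -0.70 in ABX-treated mice, q of 0.041 or below, edgeR), while the other 3 of 6 fibroblast markers did not pass. In ABX-treated mice the 3 calls became 0 with epithelial-marker scaling and 1 without CD+ABX mouse 1. Among all genes tested, 14.4% passed for TDD in SPF mice and 1.77% for TDD in ABX-treated mice. For ABX the shares were 12.8% on CD and 15.5% on TDD, and they stand beside every list here. For TDD in SPF mice and for ABX on TDD, 1 call in a list of 6 or 7 genes is about the share of all genes. Of 6 Paneth cell markers, Mmp7 was higher on TDD in SPF mice (0.84, q = 0.0166) and lower with ABX on TDD (-0.77, q = 0.0265), and Defa17 was lower on TDD in ABX-treated mice (-0.58, q = 0.0347, edgeR), calls that were lost without TDD mouse 2 (Mmp7 with ABX) and without CD+ABX mouse 1 (Defa17). Of 7 goblet cell markers, Clca1 was lower on TDD in SPF mice (-0.98, q = 0.0006) and higher with ABX on TDD (0.65, q = 0.0121, edgeR). In edgeR none of the 8 B cell and follicle markers passed in any comparison. All 8 had an unadjusted p under 0.05 for ABX on CD, beside 26.7% of all genes. For TDD in ABX-treated mice 6 did, beside 14.8% of all genes, and for ABX on TDD 1 did, beside 30.6%. Of 11 enterocyte markers, 5 passed with ABX on each diet, 3 as higher (Fabp2, Anpep and Fabp6) and 2 as lower, with Apoa4 the larger of these (-1.61, q = 0.0054, on CD and -1.13, q = 0.0317, on TDD, edgeR), and Slc5a1 passed as higher on TDD in SPF mice (0.61, q = 0.0326, edgeR). Without TDD+ABX mouse 1 none of the enterocyte markers passed as lower with ABX on TDD, and without CD mouse 2 Slc5a1 did not pass. Of 10 epithelial markers, Krt8 and Krt19 were higher with ABX on both diets, Cdx2 on CD and Cdx1 on TDD, and Elf3 was lower on TDD in SPF mice (-0.35, q = 0.0323, edgeR), which was lost without CD mouse 3. T cell markers passed as lower with ABX in 5 of 7 on CD and 4 of 7 on TDD, Cd5 by the most (-2.69, q = 0.00129, and -1.43, q = 0.0344, edgeR), and the 4 calls on TDD became 0 without TDD+ABX mouse 1. In edgeR none of 6 smooth muscle or 4 enteric glia markers passed in any comparison (at an unadjusted p under 0.05, none of the former and 1 of the latter for ABX on TDD and for the interaction), and of 2 neutrophil markers tested, of 6 listed, Csf3r was lower with ABX on CD (-0.55, q = 0.0107, edgeR).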
